A study of Mus musculus with 12 samples.

Results

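The 10 genes described here stand at the output and the repressor side of the circadian clock and were followed in primary cells from the mouse cerebral cortex, grown in the presence or absence of T3 (triiodothyronine), which is the receptor-binding form of thyroid hormone. They were chosen by name and role. No threshold on their values was applied, but earlier results of these data were known. The output genes are the proline and acidic amino acid-rich (PAR) bZIP genes Dbp, Tef and Hlf, with Nfil3 as their competitor. The clock repressors are Nr1d1, Nr1d2, Per1, Per2, Per3 and Cry2. All 10 were among the 14801 genes of the deposited table, and all 10 passed the filter on low values, with 28 to 1498 reads per gene and library. There are 12 libraries: 6 of untreated cultures, and 6 of cultures that received 10 nM T3 for 24 h. All are wild type, from fetuses taken on gestational day 17.5, and each mouse number of the labels, 1 to 6, has a culture of each kind. All cultures grew for 9 days and were then kept for 24 h without the B27 supplement before T3 was added to the treated ones, so the withdrawal is shared by both groups, which were kept in parallel. The sources used here name neither the strain nor the hour of harvest.

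In the clock of mammalian cells, CLOCK and BMAL1 (the product of Arntl) bind E-box sequences and switch on Per and Cry genes, whose proteins then inhibit CLOCK and BMAL1. The same activators drive Nr1d1 and Nr1d2, which encode the nuclear receptors REV-ERB alpha and REV-ERB beta and repress Arntl. They also drive Dbp, a rhythmic output gene. DBP, TEF and HLF activate genes through a sequence called the D-box, and NFIL3 (E4BP4) represses through the same sequence. In the brain these factors are best known from the suprachiasmatic nucleus, but most neurons and glia carry the same loop.

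Promoter sequence is shown for 4 members, because Dbp and Hlf had the largest changes and because Per3 and Per1, members of 1 family, both carry D-box letters. The windows come from RefSeq (GRCm38.p6), which held 11 start sites for 9 of the 10 members, with none for Per2. Each printed run is the 250 bases before the start site, read 5′ to 3′ on the gene's strand. The runs lie at chr7:45704997-45705246 (plus strand) for Dbp, chr11:90390918-90391167 (minus strand) for Hlf, chr4:151044666-151044915 (minus strand) for Per3 and chr11:69098699-69098948 (plus strand) for Per1. Capitals mark exact matches, on either strand, to an E-box (CACGTG), a D-box (TTATGTAA, TTATGCAA or TTACGTAA), a cAMP response element (TGACGTCA) or a binding sequence of ROR and REV-ERB (TAGGTCA).
Dbp: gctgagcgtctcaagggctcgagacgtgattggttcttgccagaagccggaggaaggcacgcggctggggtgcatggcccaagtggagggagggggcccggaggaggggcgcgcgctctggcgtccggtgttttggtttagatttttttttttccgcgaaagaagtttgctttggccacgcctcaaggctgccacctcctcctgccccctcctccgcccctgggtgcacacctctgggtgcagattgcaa
Hlf: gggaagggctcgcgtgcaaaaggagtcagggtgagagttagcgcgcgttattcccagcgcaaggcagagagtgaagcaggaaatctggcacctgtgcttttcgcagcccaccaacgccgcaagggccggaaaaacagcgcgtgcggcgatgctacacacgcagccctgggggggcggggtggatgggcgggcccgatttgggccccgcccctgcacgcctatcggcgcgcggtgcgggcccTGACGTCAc
Per3: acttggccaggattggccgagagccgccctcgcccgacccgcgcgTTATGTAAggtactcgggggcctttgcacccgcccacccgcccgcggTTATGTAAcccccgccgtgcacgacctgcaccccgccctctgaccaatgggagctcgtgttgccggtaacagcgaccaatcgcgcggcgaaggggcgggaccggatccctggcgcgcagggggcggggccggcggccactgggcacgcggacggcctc
Per1: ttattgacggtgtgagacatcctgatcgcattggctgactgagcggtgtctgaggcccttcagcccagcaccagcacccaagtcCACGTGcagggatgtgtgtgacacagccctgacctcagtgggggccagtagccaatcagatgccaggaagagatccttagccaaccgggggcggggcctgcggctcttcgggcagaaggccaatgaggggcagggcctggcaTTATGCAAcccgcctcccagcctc

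The Per3 window held TTATGTAA at 2 places, positions -205 and -158 (first base of the match, counted back from the start site). That 8-base run stood in 307 of the 32817 RefSeq windows of this length (0.935%), which reach from 250 bases before to 50 bases after the start site. The printed window of Per1 held TTATGCAA at -24, a run found in 0.744% of windows, and an E-box at -166. The other Per1 window held none of the runs marked here. An E-box was found in 7.15% of all windows and also stood in both windows of Tef, at -127 and -138. Hlf held TGACGTCA at -9 (1.79% of windows). Nfil3 held TAGGTCA on the opposite strand at -12 (2.61% of windows). The windows of Dbp, Nr1d1, Nr1d2 and Cry2 held none of these runs, which says only that the letters are not in these stretches. The direct repeat called DR4, a pair of AGGTCA runs spaced as thyroid hormone receptors bind them, was in 5 of all windows (0.0152%) and in no window of a member.

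The libraries held 5272092 to 10837895 reads, with 1.03 to 1.67 times as many reads in a mouse's T3 library as in its untreated one (more in 6 of 6 mice). The limit that 0 reads allow, taken as 3 reads, was at most 0.557 CPM (reads scaled by library size after TMM normalization, the unit of all levels below), which covers counting error only. The treatment was visible in Hr, a corepressor gene and known T3 target, which stood at 5.49 ± 1.23 without T3 and 46.5 ± 2.92 with T3 (SD, n = 6). The 5 neuronal markers together stood between 4280 and 6138 CPM, with a sum higher with T3 in 1 of 6 mice and a median log2 change of -0.06. Of these Rbfox3 rose (0.27, adjusted p = 0.0101), a call lost without mouse 3 or mouse 4 (0.0544 without mouse 4), and the others did not pass, with Map2 at -0.11, Syt1 at -0.13, Tubb3 at -0.06 and Snap25 at 0.14. Of the 5 microglial markers Tmem119 and P2ry12 were not listed, and the other 3 together stood at 6.68 CPM or less in every library. The library of mouse 4 without T3 held transcripts of heart and connective tissue (6 markers, 5 of them listed, together 1361 CPM, against 18.5 to 41.2 in the other 11 libraries). Of the 3 of these markers that were tested, Dcn alone passed with limma (log2 change -0.47, adjusted p = 0.00806). It was lower in 6 of 6 mice, and its fit without mouse 4 is not given. Calls of other named genes that were lost without mouse 4 are given.

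Of the 10 clock genes, 5 passed the test for an effect of T3, all by less than 2-fold. Dbp, Hlf, Nr1d1 and Per3 rose, and Nfil3 fell, while Tef, Nr1d2, Per1, Per2 and Cry2 did not pass. For comparison, 5.52% of the 13663 genes tested passed, 3.37% as higher and 2.14% as lower. The median log2 change was 0.10 over the 10 genes and 0.003 over all genes tested. Because the 10 were chosen with earlier results of these data known, neither comparison is a test of the group. Changes had the same sign in 6 of 6 mice for Dbp, Hlf, Nr1d1 and Per3, a pattern that 10.8% of all tested genes showed. The test was limma on log2(value + 0.5) with the mouse as a block, and a fold change on this scale understates that of genes with low values.

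**Figure D1:**
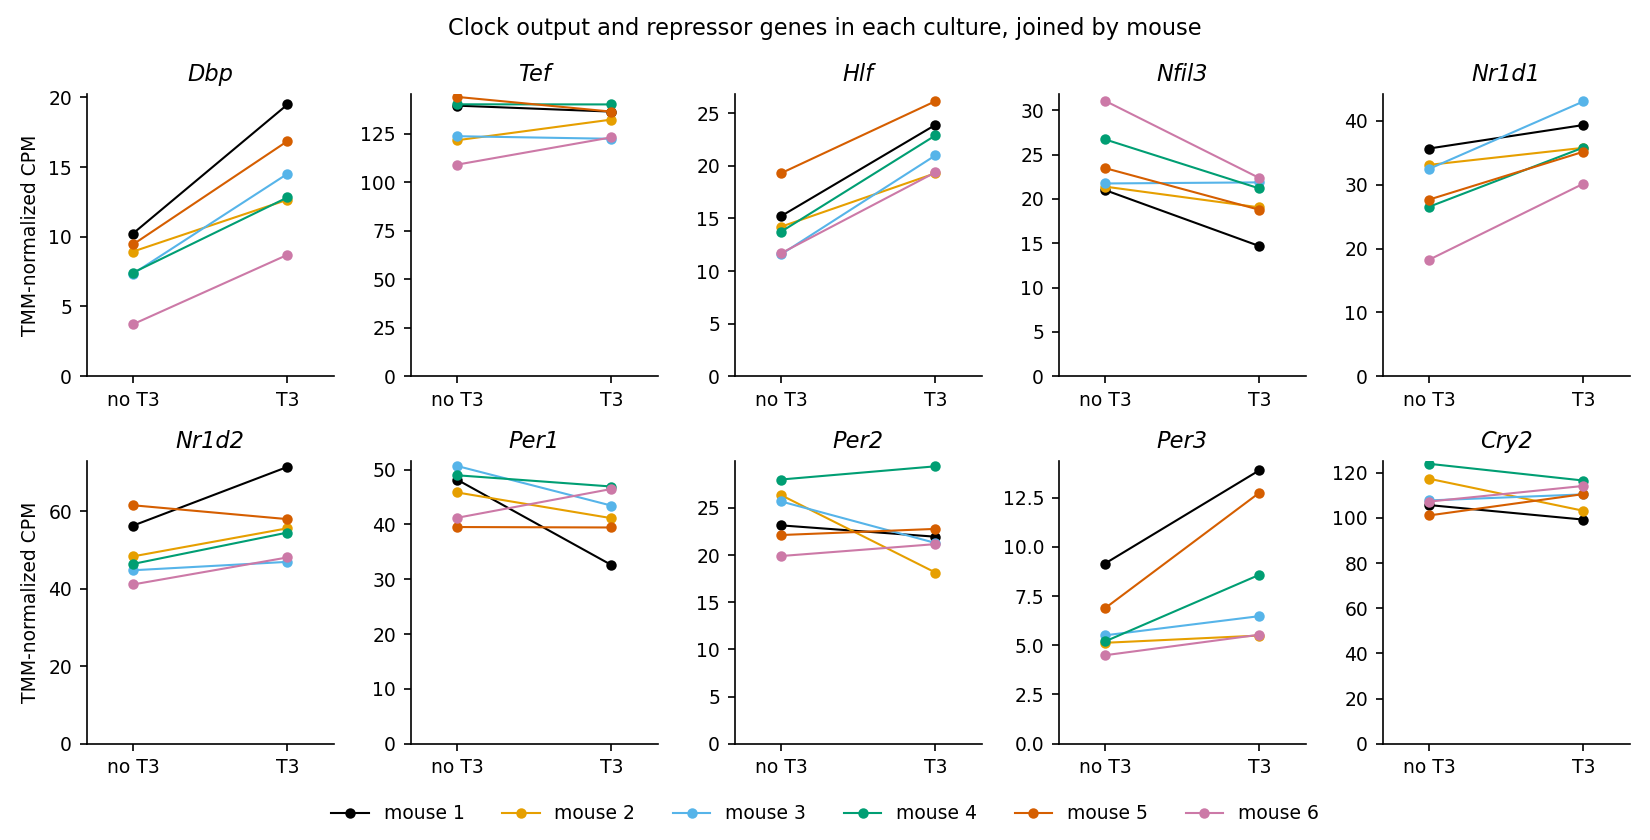
TMM-normalized CPM of the 10 genes (vertical axes, each from 0) in cultures without and with T3 (horizontal axis), with a line for each of 6 mice. The lines of Dbp and Hlf climb in 6 of 6 mice, those of Nfil3 descend in 5 of 6, and those of Tef, Per2 and Cry2 cross.

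Dbp (ENSMUSG00000059824, chromosome 7 from 45705088 to 45710203 of GRCm38, plus strand) encodes the albumin D-box binding protein, the most strongly rhythmic of the PAR bZIP factors in most tissues. Without T3 it ran from 3.72 to 10.2 CPM around a median of 8.18, and with T3 from 8.70 to 19.5 around a median of 13.7. The groups overlapped through mouse 6, whose T3 culture (8.70) lay below the untreated cultures of mice 1, 2 and 5. Within each mouse the T3 culture was higher, by log2 changes from 0.48 in mouse 2 to 1.12 in mouse 6. The fitted log2 change was 0.83 (SE 0.106, 95% interval 0.61 to 1.05, adjusted p = 3.22e-05), a fold of 1.78. The gene Sphk2 lies on the opposite strand over 18.0% of the Dbp exons, and the library kit does not mark strand. The part of Sphk2 reads in the Dbp values was not tested. Sphk2 itself stood at 18.4 ± 2.41 without and 18.7 ± 2.96 with T3 (SD, n = 6; log2 change 0.02, 95% interval -0.19 to 0.22).

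Hlf (ENSMUSG00000003949, chromosome 11 from 90336536 to 90390895, minus strand) encodes the hepatic leukemia factor, a PAR bZIP factor with strong expression in the brain. Without T3 it ranged from 11.6 to 19.3 CPM with a median of 14.0, and with T3 from 19.3 to 26.2 with a median of 21.9. The highest untreated and the lowest treated culture differed by less than the value of 1 read, so the groups touched without overlapping, as those of 1.68% of all tested genes did not overlap. The log2 change was 0.62 (SE 0.085, 95% interval 0.45 to 0.80, adjusted p = 7.73e-05), a fold of 1.54. Its changes in single mice ran from 0.43 to 0.83.

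Tef (ENSMUSG00000022389, chromosome 15 from 81802421 to 81826863, plus strand), the thyrotroph embryonic factor and the third PAR bZIP gene, had levels from 109.1 to 144.1 CPM without T3 and from 122.5 to 140.2 with T3. The ranges lay over each other, and T3 cultures were higher in 2 of 6 mice. The log2 change was 0.03 (95% interval -0.08 to 0.14, adjusted p = 0.845), an interval that does not reach the values of Dbp or Hlf in any mouse.

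Nfil3 (ENSMUSG00000056749, chromosome 13 from 52967209 to 52981073, minus strand), the repressor at the D-box, went the other way. Its levels without T3 were 21.0 at the lowest, 22.6 at the median and 31.1 CPM at the highest, against 14.7, 20.1 and 22.4 with T3. The ranges overlapped between 21.0 and 22.4, and the T3 culture was lower in 5 of 6 mice, with mouse 3 at a log2 change of 0.01. The log2 change was -0.29 (SE 0.083, 95% interval -0.47 to -0.12, adjusted p = 0.0398). This call lay close to the threshold: it was lost without mouse 1, 4, 5 or 6 (adjusted p = 0.0908, 0.0982, 0.0904 and 0.146) and with DESeq2 (0.154), over a range of 0.0319 to 0.336 in the 16 alternatives, and the log2 change stayed between -0.355 and -0.253.

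**Figure D2:**
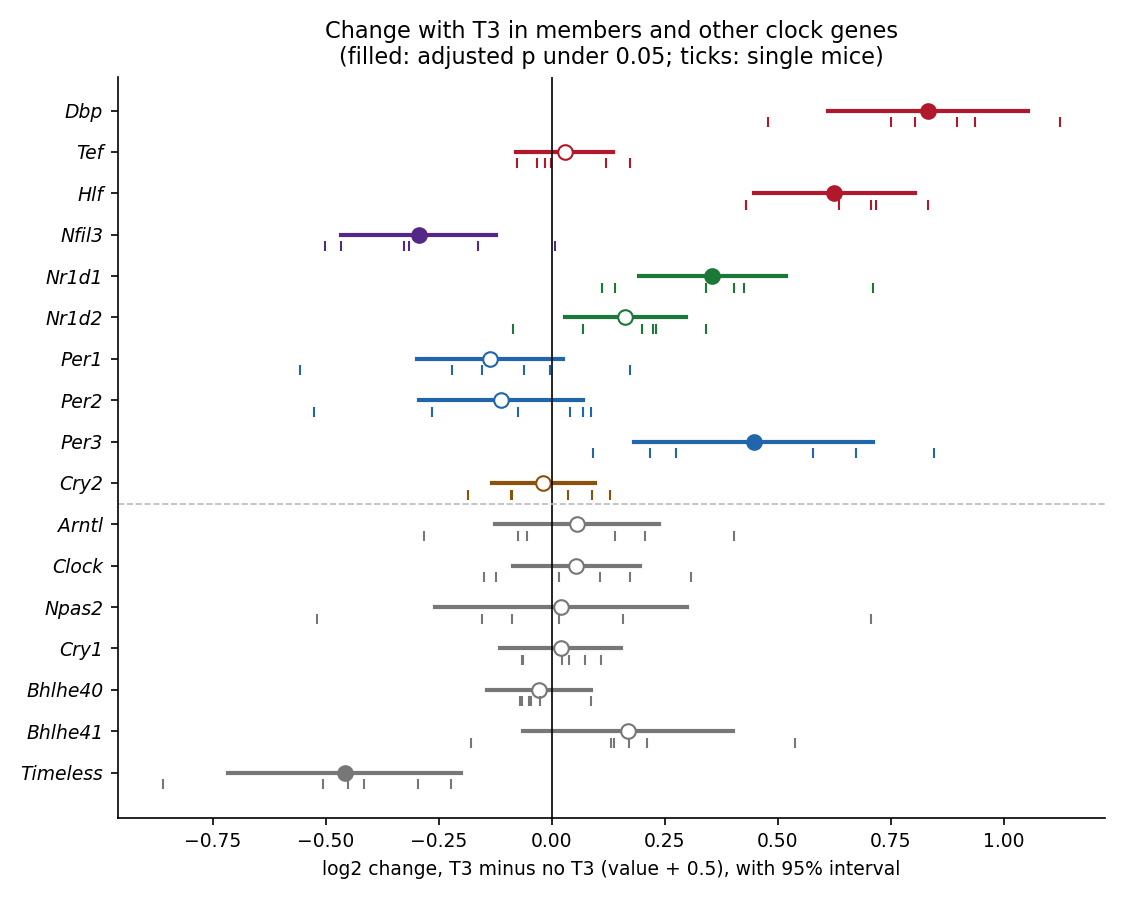
Log2 change with T3 (horizontal axis) for the 10 genes and, under the dashed line, 7 other clock genes. Points are fitted values, bars 95% intervals, filled points have an adjusted p under 0.05, and ticks are the 6 single mice. Dbp at 0.83 and Hlf at 0.62 lie farthest to the right, and Timeless at -0.46 farthest to the left.

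Among the repressors, the nuclear receptor gene Nr1d1 (ENSMUSG00000020889, chromosome 11 from 98767932 to 98775333, minus strand) rose. It stood between 18.2 and 35.7 CPM without T3, with a median of 30.1, and between 30.2 and 43.1 with T3, with a median of 35.8. The ranges overlapped, but the T3 culture was the higher in each mouse, by log2 changes from 0.11 in mouse 2 to 0.71 in mouse 6. The log2 change was 0.36 (SE 0.078, 95% interval 0.19 to 0.52, adjusted p = 0.00761). Thra, the gene of the thyroid hormone receptor alpha, lies on the opposite strand over 8.55% of the Nr1d1 exons and is far more abundant, at 1585 ± 110.8 CPM without and 1488 ± 146.4 with T3 (SD, n = 6). Its fitted log2 change was -0.09 (95% interval -0.20 to 0.01). This value covers the whole Thra gene and not the overlapping stretch alone. The part of Thra reads in the Nr1d1 values was not tested.

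Nr1d2 (ENSMUSG00000021775, chromosome 14 from 18204054 to 18239127, minus strand), the gene of the related receptor REV-ERB beta, had a median of 47.4 CPM without T3 (41.1 to 61.5) and of 55 with T3 (46.9 to 71.4). The ranges overlapped widely, and T3 cultures were higher in 5 of 6 mice. The log2 change of 0.16 had a 95% interval of 0.03 to 0.30, which does not include 0, but it did not pass after adjustment over all genes (unadjusted p = 0.019, adjusted p = 0.168). Whether the changes of Nr1d1 and Nr1d2 differ was not tested.

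Of the Per genes 1 passed. Per3 (ENSMUSG00000028957, chromosome 4 from 151003652 to 151044665, minus strand), a period gene that is not needed for the oscillation itself, ran from 4.49 to 9.15 CPM without T3 with a median of 5.35, and from 5.50 to 13.9 with T3 with a median of 7.53. The ranges overlapped, and with T3 mice 1 and 5 stood at 13.9 and 12.8 and the other 4 mice between 5.50 and 8.59. The log2 change was 0.45 (SE 0.126, 95% interval 0.18 to 0.71, adjusted p = 0.0423), with single mice from 0.09 to 0.84. The call was lost without mouse 1, 3, 4, 5 or 6 (adjusted p = 0.0889, 0.0678, 0.118, 0.183 and 0.0592) and with DESeq2 (0.187), and adjusted p ranged from 0.0273 to 0.553 over the 16 alternatives, with log2 changes from 0.37 to 0.52.

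Per1 (ENSMUSG00000020893, chromosome 11 from 69095217 to 69109960, plus strand), a period gene that also answers acutely to cAMP and glucocorticoids, had a median of 47.0 CPM without T3 (39.5 to 50.7) and of 42.3 with T3 (32.6 to 46.9). The T3 culture was lower in 5 of 6 mice, most of all in mouse 1 (48.2 without and 32.6 with T3). The log2 change was -0.14 (95% interval -0.30 to 0.02, adjusted p = 0.389). Per2 (ENSMUSG00000055866, chromosome 1 from 91415982 to 91459324, minus strand), the core period gene, was lower in 3 of 6 mice, with 19.9 to 28 CPM without and 18.1 to 29.4 with T3 (log2 change -0.11, 95% interval -0.29 to 0.07, adjusted p = 0.573). Cry2 (ENSMUSG00000068742, chromosome 2 from 92403646 to 92434043, minus strand), a cryptochrome that inhibits CLOCK and BMAL1, had 101.1 to 124 CPM without and 99.2 to 116.5 with T3. Its log2 change was -0.02 (95% interval -0.13 to 0.10, adjusted p = 0.912), higher in 3 of 6 mice. The intervals of Per1, Per2 and Cry2 leave room for decreases of up to 0.30, 0.29 and 0.13 on the log2 scale, and whether the Per genes differ from each other was not tested.

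The PAR bZIP genes were set against the Per, Cry and Rev-erb genes within each mouse. The mean log2 change of Dbp, Tef and Hlf was 0.495 ± 0.121 (SD over 6 mice), from 0.343 in mouse 2 to 0.668 in mouse 6. That of the 6 repressor genes was 0.116 ± 0.130, from -0.077 in mouse 2 to 0.260 in mouse 6. The output genes changed more than the repressors in 6 of 6 mice, by 0.379 ± 0.131, with the smallest gap in mouse 5 (0.174) and the largest in mouse 3 (0.545). No p is given for this score, because the genes were chosen with results of these data known. Neither group was uniform, since Tef barely differed among the first and Per1 and Nr1d1 had opposite signs among the second. Without Tef the gap was 0.612 ± 0.157, a variant chosen after seeing the data.

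**Figure D3:**
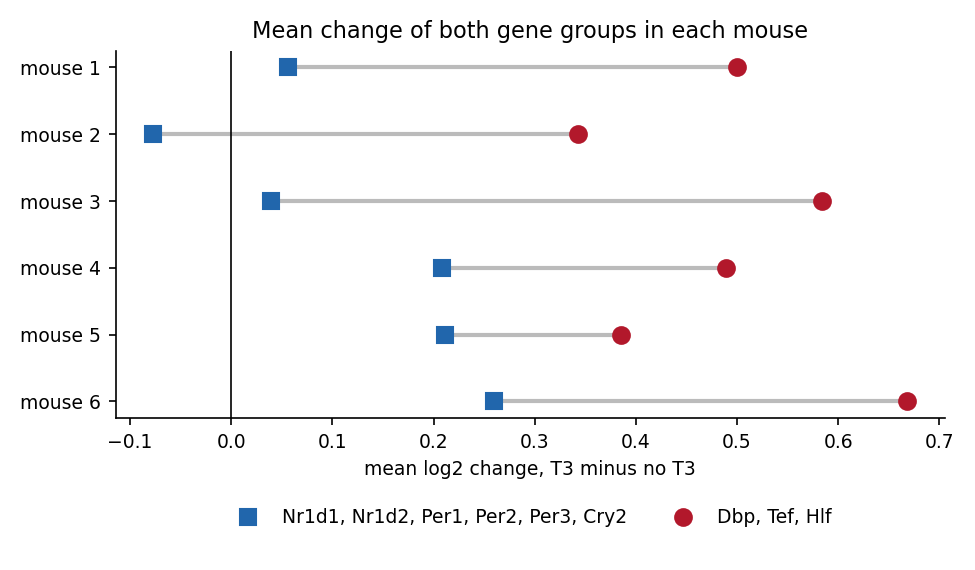
Mean log2 change with T3 (horizontal axis) of Dbp, Tef and Hlf (circles) and of Nr1d1, Nr1d2, Per1, Per2, Per3 and Cry2 (squares) in each of 6 mice (vertical axis). The circle lies to the right of the square in each of the 6 mice, by 0.174 to 0.545.

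Levels can be compared between genes after division by transcript length, here CPM per kb of merged exons. Without T3, Cry2 (17.5 ± 1.34) and Tef (16.5 ± 1.74) were the most abundant, followed by Nfil3 (12.0 ± 1.95), Nr1d1 (9.41 ± 2.04), Nr1d2 (9.19 ± 1.42) and Per1 (8.12 ± 0.794). Per2 (4.13 ± 0.514), Dbp (2.62 ± 0.774) and Hlf (2.14 ± 0.425) came next, and Per3 was lowest at 0.631 ± 0.178 (SD, n = 6). The ranges of neighbours in this order overlapped except between Per1 and Per2 and between Hlf and Per3. With T3, Dbp went to 4.73 ± 1.25 and passed Per2 (3.84 ± 0.641), and Nfil3 at 9.70 ± 1.40 went below both Rev-erb genes, in each case with overlapping ranges. With the length of the longest transcript in place of merged exons Tef stood above Cry2, and Dbp stood above Per2 already without T3 (4.27 ± 1.26 and 4.15 ± 0.516), both with overlapping ranges.

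**Figure D4:**
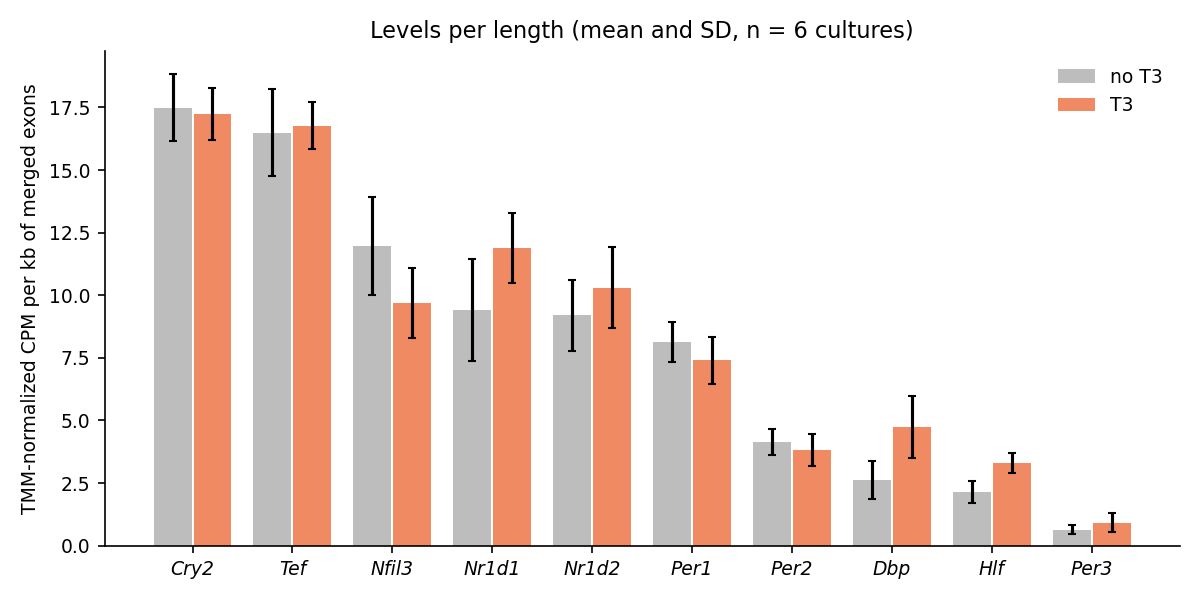
Mean level of the 10 genes (vertical axis, TMM-normalized CPM per kb of merged exons, from 0) without and with T3, in the order of the levels without T3. Error bars are SD over 6 cultures. Tef and Cry2 stand above 16 in both groups, and Dbp goes from 2.62 to 4.73.

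Because Tef was the most abundant PAR bZIP transcript, the sum of the 3 moved less than Dbp and Hlf did. The summed level was 21.3 ± 2.73 CPM per kb without and 24.8 ± 2.25 with T3 (SD, n = 6), higher in 6 of 6 mice by 1.10 to 1.27 times. Tef made up 77.8% ± 2.94 of this sum without T3 and 67.8% ± 3.78 with T3. The ratio of the summed PAR bZIP level to that of Nfil3 went from 1.83 ± 0.407 to 2.64 ± 0.652 and was higher with T3 in 6 of 6 mice, by 1.18 to 1.77 times. With the longest transcript as the length the ratio was 3.12 ± 0.687 and 4.42 ± 1.08.

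The cultures of different mice differed in these genes also without T3, and the members moved in opposite directions between mice. Without T3, mouse 6 had the lowest level of 6 of the 10 genes (Dbp, Tef, Nr1d1, Nr1d2, Per2 and Per3) and the highest level of Nfil3. Mouse 1 had the highest Dbp (10.2 CPM), Nr1d1 (35.7) and Per3 (9.15) and the lowest Nfil3 (21.0). With T3, mouse 6 was again the lowest in Dbp (8.70) and Nr1d1 (30.2) and the highest in Nfil3 (22.4), and mouse 1 again the highest in Dbp (19.5) and Per3 (13.9) and the lowest in Nfil3 (14.7). Between mice without T3, Dbp varied 2.75-fold, Per3 2.04-fold and Nr1d1 1.96-fold, and Tef 1.32-fold and Cry2 1.23-fold. In the fit that ignored the pairing by mouse, Hlf alone among the 10 passed (adjusted p = 0.012), and Dbp (0.103), Nr1d1 (0.333), Nfil3 (0.336) and Per3 (0.553) did not.

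The summed level of 6 astrocyte markers (Gfap, Aqp4, Aldh1l1, Slc1a3, Slc1a2 and Gja1) was, like Dbp in both groups, lowest in mouse 6 (762 CPM without and 1150 with T3) and highest in mouse 1 (2590 and 3062). Mouse 5 was second highest in the sum and in Dbp in both groups, and only the order among mice 2, 3 and 4 differed. The sum was higher with T3 in 6 of 6 mice. Of these markers 4 rose with T3 and none fell, beside 3.37% of all tested genes that rose and 2.14% that fell. The 4 were Slc1a2, Aldh1l1, Gfap and Aqp4 (log2 changes from 0.29 to 0.43), and 2 rose under total-count scaling. Of these 4 calls Slc1a2 alone held without mouse 6, and 2 held without mouse 3, 4 or 5. Without mouse 4 those lost were Aqp4 and Aldh1l1 (adjusted p = 0.0684 and 0.0615), while Gja1 passed (0.0184), and without mouse 1 Aqp4 was lost (0.0658). The mean log2 change of the markers was 0.66 in mouse 6, which also had the largest change of Dbp (1.12) and Nr1d1 (0.71), and 0.14 to 0.24 in the other mice. Hlf, Per3 and Nfil3 changed most in other mice, namely mouse 3 (0.832), mouse 5 (0.845) and mouse 1 (-0.502). The part of the astrocyte markers in the results for Dbp, Hlf, Nr1d1, Per3 and Nfil3 was not tested. In bulk cultures, more cells of a type and more RNA per cell cannot be told apart. Without mouse 6 the log2 change was 0.77 for Dbp and 0.28 for Nr1d1, and both passed with limma (adjusted p = 0.00016 and 0.0397). The astrocyte markers rose on average in the other mice too, so these fits do not test their part. The markers of dividing cells (Mki67, Top2a, Mcm2 and Mcm6) went the other way, with a sum lower with T3 in 6 of 6 mice (98.3 to 219 CPM without and 76.0 to 104 with T3, the 219 in mouse 4). Of these, Mcm6 and Mcm2 fell (log2 changes -0.41 and -0.35), the latter not with DESeq2 or without mouse 1, 2 or 3. Of 6 oligodendrocyte-lineage markers 2 rose, Gpr17 (1.23) and Olig2 (0.24). Olig2 was lost with DESeq2 and without mouse 3, 4, 5 or 6 (adjusted p = 0.17 without mouse 4, 0.0124 to 0.407 over the 16 alternatives). Mog and Mbp, genes of myelin proteins, did not pass, at -0.35 and -0.11, each lower in 5 of 6 mice. Of 4 endothelial and mural markers none passed with limma, 1 at an unadjusted p under 0.05 and 0 with edgeR or DESeq2. Their part in the results was not tested either.

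**Figure D5:**
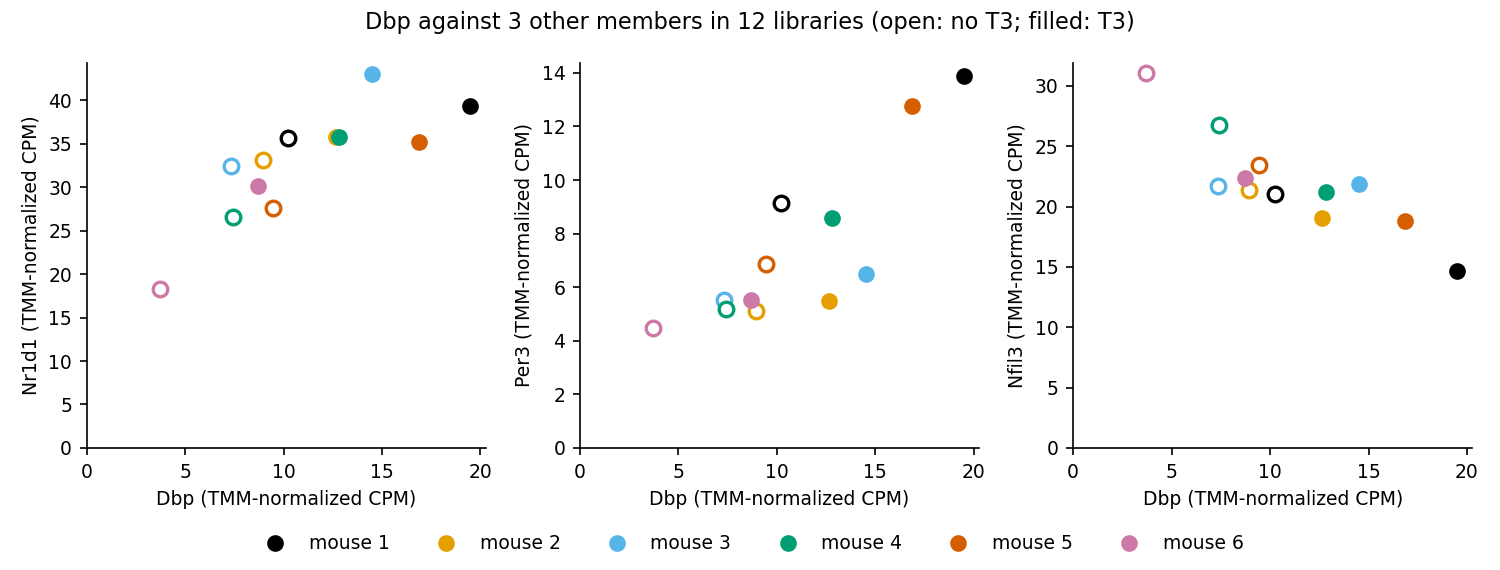
Level of Dbp (horizontal axes) against Nr1d1, Per3 and Nfil3 (vertical axes), all in TMM-normalized CPM, in 12 libraries, with open points without T3, filled points with T3 and a colour for each mouse. Nr1d1 and Per3 climb with Dbp and Nfil3 descends, from mouse 6 without T3 (Dbp at 3.72) to mouse 1 with T3 (Dbp at 19.5).

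Over the 12 libraries, Pearson's r of log2 levels with Dbp was 0.885 for Nr1d1, 0.868 for Hlf, 0.786 for Per3, 0.766 for Nr1d2 and 0.571 for Tef. It was -0.886 for Nfil3, which ranked 12322 of 12361 other tested genes with an established symbol, and -0.465 for Per1, -0.247 for Cry2 and -0.025 for Per2. These libraries share the treatment and the differences between mice, so the values are descriptions. The genes most like Dbp were Cxcl14 (0.969), a chemokine gene, Olig1 (0.957), a transcription factor gene of the oligodendrocyte lineage, Asap3 (0.945), Slc43a2 (0.941) and Sntb2 (0.938). Those most like Hlf were Cntn3 (0.948), a contactin gene, Trib2 (0.943), Klf9 (0.934), Adgra3 (0.928) and Arhgef26 (0.924). Klf9, a transcription factor gene and known T3 target, went from 23.7 ± 4.71 to 65.4 ± 6.60 CPM (SD, n = 6; log2 change 1.46).

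Of 20 other clock genes 19 were in the table and 18 were tested, and 1 of these passed, beside 5.52% of all tested genes. The median log2 change of the list was 0.001. The activator genes stood at 22.6 ± 3.10 CPM without and 23.4 ± 1.49 with T3 for Arntl (log2 change 0.06, 95% interval -0.13 to 0.24), at 49.98 ± 4.81 and 52.0 ± 5.54 for Clock (0.05, -0.09 to 0.19) and at 8.27 ± 1.86 and 8.43 ± 1.99 for Npas2 (0.02, -0.26 to 0.30). The cryptochrome gene Cry1 had a log2 change of 0.02, and the repressor genes Bhlhe40 and Bhlhe41 had -0.03 and 0.17. Rora and Rorb, whose products compete with the REV-ERB proteins for the same sequence, did not pass, at 0.21 (95% interval 0.05 to 0.36, adjusted p = 0.12) and -0.21 (-0.39 to -0.03, adjusted p = 0.191). They had the sign of the change in 5 and 6 of 6 mice, and were named after their values were seen. The gene that passed was Timeless, which acts at the replication fork and whose place in the mammalian clock is debated. It fell from 7.62 ± 1.59 to 5.34 ± 0.490 CPM (log2 change -0.46, adjusted p = 0.0319), lower in 6 of 6 mice and most in mouse 4 (-0.861). Whether this goes with the lower markers of dividing cells was not tested. The call of Timeless was lost without mouse 2, 3, 4 or 5 (adjusted p = 0.116 without mouse 4) and with DESeq2. Its adjusted p ran from 0.0296 to 0.188 over the 16 alternatives.

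Genes downstream of the clock were looked at in a list of 10, of which 9 were tested and 2 rose, beside 3.37% of all tested genes. These were Tspan4 (log2 change 0.31, adjusted p = 0.0187) and Alas1, the first enzyme of heme synthesis (0.20, adjusted p = 0.0494). Pdxk, which makes the active form of vitamin B6 and is a known target of PAR bZIP factors in brain, stood at 122.2 ± 7.27 CPM without and 129.3 ± 11.1 with T3 (log2 change 0.08, 95% interval -0.04 to 0.19, adjusted p = 0.513), higher in 5 of 6 mice. The calls of Tspan4 and Alas1 each held in 1 of 6 fits that left out a mouse. They held in 9 and 5 of all 16 alternatives, and that of Tspan4 was lost without mouse 4 (adjusted p = 0.0537).

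Signals known to act on Per1 were read from 2 further lists. Of 10 genes that respond to glucocorticoids 3 rose, beside 3.37% of all tested genes. They were Klf9, also a known T3 target, the glucocorticoid receptor gene Nr3c1 (log2 change 0.38, adjusted p = 0.000287) and the kinase gene Sgk1 (0.42, adjusted p = 0.000314). The median log2 change of the list was 0.002. Fkbp5 and Tsc22d3, on the same list, did not pass, with log2 changes of -0.02 and -0.0005, and were named after their values were seen. Whether signalling by the receptor changed was not tested. Of 10 genes that respond to cAMP none passed with limma, 1 had an unadjusted p under 0.05 (Rgs2, log2 change -0.19, likewise named afterwards), and edgeR and DESeq2 called 0.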

How the data were processed

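Total RNA libraries (TruSeq v2, single 75-base reads, a kit that does not mark strand) were counted per gene by the authors. The submitters' processing notes name CASAVA, FastQC, Bowtie, TopHat, HTSeq, edgeR and GRCm38. The deposited signal is reads in CPM after TMM scaling by the authors. Dividing each value by that of 1 read gave whole numbers (100% within 0.01 reads) and so gave back 5272092 to 10837895 reads per library. In the T3 library of mouse 6, 1 read is worth 0.0989 CPM, close enough to a decimal step that whole numbers there could not be told from rounding by the check used, so results from recovered reads carry that limit.

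The main test was limma 3.58.1 (R 4.3.3, trend, robust) on log2(value + 0.5) with the mouse as a block, after edgeR's filterByExpr (13663 genes kept, 1138 removed), with Benjamini-Hochberg adjustment over all genes tested at 0.05. The block comes from the mouse number that the labels give each library. Deviations from the group means correlated at 0.274 to 0.67 within the 6 pairs. Between untreated and T3 libraries of different mice the median was -0.136 and the highest value 0.421. The untreated library matched the T3 library of its own mouse best in 6 of 6 mice. Alternatives were edgeR 4.0.16, DESeq2 1.42.0 and limma-voom on the recovered reads (with edgeR calling 782 genes against 754), other scalings, filters and pseudocounts, and leaving out each mouse. On simulated counts for this comparison over 13663 genes, 75% of genes changed 1.5-fold and 90% of those changed 2-fold were recovered. Of the genes called there, 6.25% were false. Smaller folds, such as those of Nr1d1 (1.28), Per3 (1.36) and Nfil3 (1.23, as a decrease), were not simulated. Gene models were GENCODE M21. The genes and lists were chosen with earlier results of these data known. Named genes are the 10 members, the genes past the threshold in each list (at most 4 by smallest p), 7 clock-related genes whatever their values, and the 5 genes most like Dbp and Hlf.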

Additional observations from a re-analysis of the deposited data

How the results depend on the processing

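Of the 10 genes 5 passed as reported (4 higher, 1 lower), and none of these 5 changed sign under the 16 alternatives run. Leaving out one mouse gave 3 to 5 (higher 3 to 4, lower 0 to 1), DESeq2 gave 3 (lower 0), and the fit without the replicate block gave 1 (higher 1, lower 0). Dbp, Hlf and Nr1d1 passed in 15, 16 and 15 of 16, with the fit without the block as the exception for Dbp and Nr1d1. Nfil3 passed in 10 and Per3 in 9. Tef, Nr1d2, Per1, Per2 and Cry2 passed in 0 of 16 alternatives.

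Among the other clock genes, 1 call became 0 without the block and with DESeq2, and 0 to 1 when a mouse was left out. For the clock output targets, 2 calls became 1 with no filter, with RLE scaling, with total-count scaling and with limma-voom, 0 without the block and with DESeq2, and 0 to 1 when a mouse was left out. For the astrocyte markers, 4 calls became 2 with total-count scaling, 0 without the block and 1 to 4 when a mouse was left out. Over all genes, 754 calls became 178 without the block and 459 to 854 when a mouse was left out, with 459 without mouse 3. The cause was not tested. The gap between PAR bZIP and repressor genes was 0.352 without Cry2 and 0.328 without Per1, Per2 and Per3. It was 0.391 and 0.364 with pseudocounts of 0.1 and 1, and 0.345 to 0.420 when a mouse was left out. For Dbp and Hlf without Tef, the variant chosen after seeing the data, it was 0.612. Per3 and Dbp rest on as few as 28 and 29 reads per library, which limits their precision.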
